A study of Rattus norvegicus with 16 samples.

Results

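The day 5 libraries of a rat sciatic nerve crush series compared purified Schwann cells with whole nerve, each from its own pools of nerves. The samples were chosen by their labels, as the Schwann cell and whole nerve samples collected 5 days after crush, 2 of each, and they make up 4 of the 16 samples of the series. The other 12 samples are the uncrushed, day 3 and day 7 groups of both tissues, again with 2 libraries each. The labels name no transgene or drug, and the rats were operated on at postnatal day 18, the age the labels give for every sample. The left sciatic nerve was crushed with forceps at mid-thigh, and the segment distal to the crush was collected for both tissues. Uncrushed nerves came from rats without a sham operation.

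Each sample pooled at least 10 nerves. Schwann cells were dissociated from the nerve and purified by immunopanning, in which dishes coated with antibodies against CD45 and Thy1 first removed immune cells and fibroblasts, and a dish coated with the O4 antibody then held the Schwann cells. Whole nerve RNA was extracted from tissue that was not dissociated, with another extraction kit. A difference between the 2 tissues therefore holds the cell type, the dissociation and the kit together, and these cannot be told apart here. The study also lists samples of dissociated whole nerve, which were not analysed here. The sources do not say whether the 2 samples of a group came from separate cohorts of rats, so p-values measure only the spread between these pools.

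Schwann cells are the glia of peripheral nerve. They wrap or ensheath axons, and after a crush those distal to the injury shut down myelin genes and turn into repair cells, which clear myelin, secrete trophic factors and guide regrowing axons through tubes of basement membrane. The same nerve holds endoneurial and epineurial fibroblasts, perineurial cells, endothelial cells and pericytes, mast cells, resident macrophages and adipocytes of the epineurium, and blood monocytes enter it in the days after injury. RNA of a whole nerve adds all of these together.

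The 4 libraries held between 15674976 and 18678860 expected counts, the estimated number of fragments per gene. Genes with a count above 0 numbered 17818 to 18007 in the Schwann cell libraries and 19053 to 19256 in whole nerve. The share of counts on mitochondrial genes was 3.21% to 4.12% in Schwann cells and 6.24% to 6.39% in whole nerve, and the share on the ribosomal RNA gene Rn18s was 3.83% to 4.55% against 2.29% to 2.65%. The comparison was also fitted without Rn18s and the mitochondrial genes, as given below. Replicates of a tissue were close, with a Pearson correlation of log2 counts scaled to library size of 0.993 for both tissues, against 0.865 to 0.883 between tissues. Levels are given below as TPM, a level that allows for the length of the gene and has the same sum in every library. Differences are log2 differences of Schwann cells minus whole nerve, fitted on the counts with edgeR, with their standard error (SE). A gene is called higher or lower where its p-value, adjusted over the 16829 genes tested, was below 0.05.

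At day 5, 8694 of 16829 genes differed between Schwann cells and whole nerve (51.7%), 3907 of them higher in Schwann cells (23.2%) and 4787 lower (28.4%). The differences were lopsided in size. Among called genes past 8-fold, 321 were higher (1.91% of genes tested) and 1965 lower (11.7%). With the further condition of a mean of at least 10 TPM in the tissue where the gene was higher, 30 genes were left on the Schwann cell side and 602 on the whole nerve side. Against a minimum difference of 2-fold, 824 genes were higher (4.9%) and 2441 lower (14.5%). The median over all genes tested was -0.03, so the whole distribution was centred near 0 while its lower tail was long. Normalization to the upper quartile in place of the trimmed mean moved every difference upwards by a median of 0.14, and the share of calls that were higher from 44.9% to 54.6%. Without Rn18s and the mitochondrial genes 8683 of 16814 genes were called, 8640 of them also called in the main fit. Differences then moved by a median of 0.0065. The fitted differences lay below the log2 ratios of mean TPM, by a median of 0.29 on the log2 scale (-0.29).

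By amount of RNA, the genes lower in Schwann cells made up 56.1% and 54.7% of the TPM of the whole nerve libraries and 33.1% and 32.2% of the Schwann cell libraries. Genes lower past 8-fold took 11.02% and 10.4% of whole nerve TPM and 0.298% and 0.254% of Schwann cell TPM. A single transcript, Apod, which encodes the lipid carrier apolipoprotein D and was picked out after its value was seen, stood at 28490.4 and 31857 TPM in the whole nerve libraries and at 245 and 198 TPM in Schwann cells. It was 167-fold lower in Schwann cells (log2 difference -7.38, SE 0.27, adjusted p = 4.69e-11). Higher genes made up 26.8% and 28.0% of Schwann cell TPM and 12.8% and 14.0% of whole nerve TPM. In such bulk RNA, fewer cells of a type and less RNA per cell cannot be told apart.

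**Figure D1:**
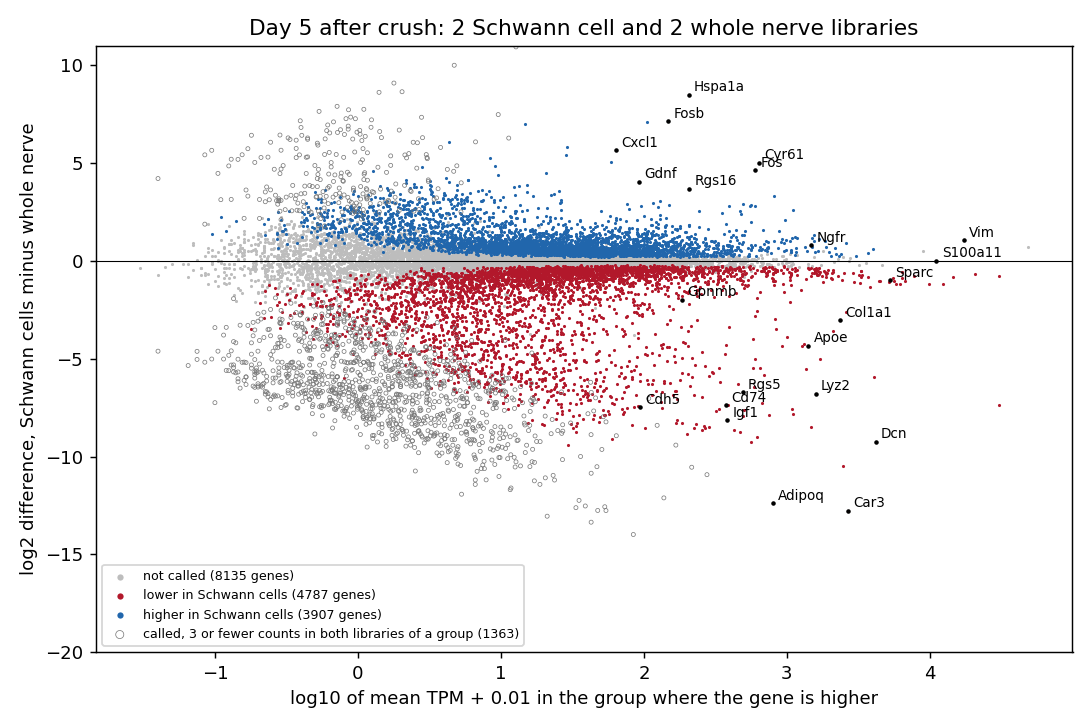
Log2 difference between Schwann cells and whole nerve at day 5 against the log10 of the mean TPM of the tissue where the gene was higher, with 1 point per gene. Open circles are called genes with 3 or fewer counts in both libraries of a tissue, whose fitted value is not a measured fold, and genes at that floor without a call as well as Col1a2 are left out. Of the 321 higher genes past 8-fold, 30 had a mean of at least 10 TPM, while lower genes at more than 100 TPM reach down to -12.77 for Car3.

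The Schwann cell label was checked against 16 genes of the Schwann lineage. Of the 15 tested, 13 were higher in Schwann cells, 1 was lower and 1 was not called, beside 23.2% higher and 28.4% lower over all genes tested. The lineage genes had a median log2 difference of 1.03 against -0.03 for all genes. Their summed level was 8131 and 8032 TPM in the Schwann cell libraries and 3673 and 4436 TPM in whole nerve. Sox10, the transcription factor that defines the lineage, stood at 124 and 128 TPM in Schwann cells and 52.7 and 59.6 TPM in whole nerve, with no overlap of the tissues, a difference of 0.88 (SE 0.15, adjusted p = 2.63e-04). Erbb3, the receptor subunit for axonal neuregulin, stood at 487 and 485 TPM against 139 and 174 TPM, a difference of 1.36 (SE 0.13). Ngfr, the p75 neurotrophin receptor of repair cells, stood at 1569 and 1381 against 582 and 802 TPM (0.81, SE 0.21), a call lost without the first whole nerve library (adjusted p = 0.076). L1cam, an adhesion molecule, had the largest difference of the list at 1.73 (SE 0.25). The member called lower was Gap43, a growth-associated protein, at 8.55 and 7.95 TPM in Schwann cells and 17.3 and 12.6 TPM in whole nerve (-1.15, SE 0.29, adjusted p = 0.00459), again a call lost without that library (adjusted p = 0.0595). The lineage genes were thus about 2-fold higher in the purified cells.

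Markers of 12 other cell types of nerve lay on the whole nerve side. All 23 tested macrophage and monocyte genes, all 10 adipocyte genes, all 8 mast cell genes, all 7 T, NK and B cell genes and all 6 lymphatic endothelial genes were lower in Schwann cells, as were 17 of 18 endothelial, 19 of 20 fibroblast, 13 of 14 pericyte and smooth muscle, 7 of 9 perineurial, 6 of 7 red blood cell, 5 of 6 neutrophil and 3 of 4 satellite glial genes. Over all genes tested, 28.4% were lower. Skeletal muscle genes were lower in 4 of 12 and uncalled in 8, with a median of -6.22, or -3.50 with the 9 genes at the floor set to their bound, and no overlap of the tissues for 11, as for 79.8% of all genes tested. With 1 library left out the median lay between -6.96 and -5.11, and the count lower was 1 with either Schwann cell library left out, 7 with DESeq2, 9 with a replicate block, 8 of 9 in a fit of day 5 alone and 12 without a filter. Genes of neurons and axons were lower in 3 of 11, higher in 1 and uncalled in 7. Genes at or under 3 counts in both Schwann cell libraries have a fitted difference that is not a measured fold, and a lower bound is given for them in its place, computed against 3 counts in the smaller library.

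**Figure D2:**
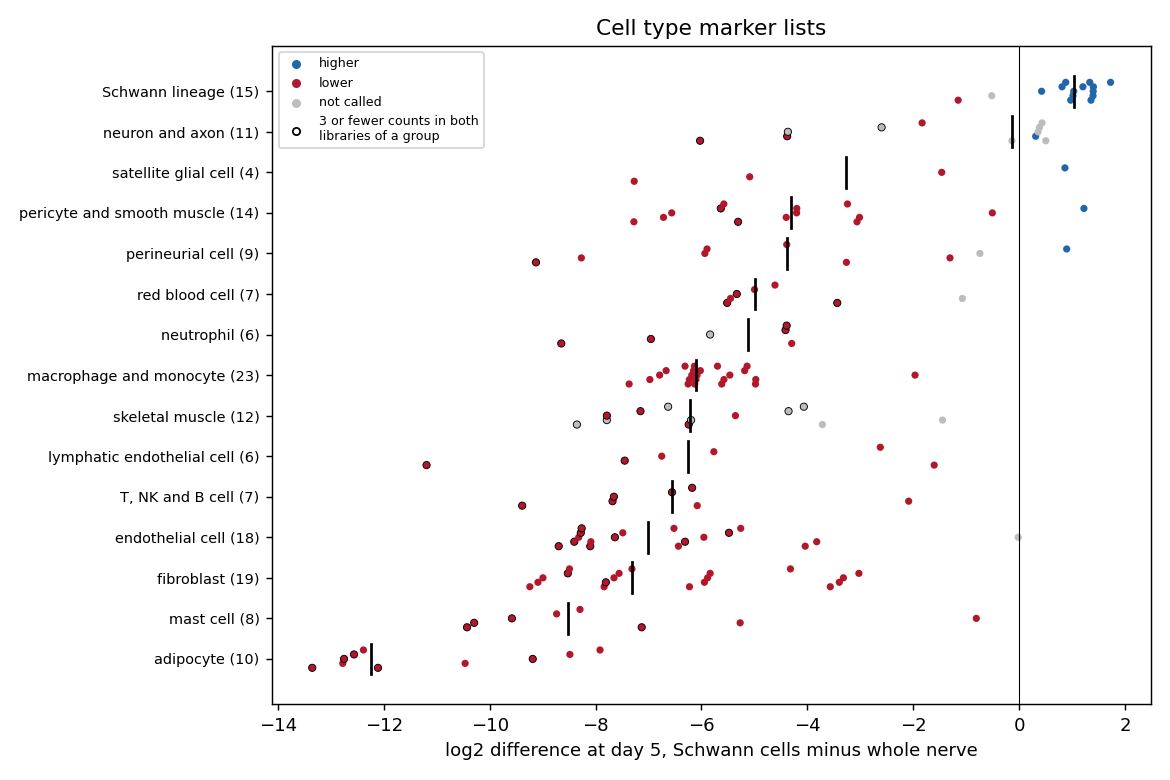
Log2 difference at day 5 for each tested gene of the 15 cell type marker lists, with 1 point per gene, a black bar at the median of the list and the number of genes in brackets (Col1a2 is left out). The Schwann lineage is the only list with its median above 0, and the adipocyte list lies farthest to the left.

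Macrophages engulf myelin and are the most numerous immune cells of the crushed nerve. Their 23 tested genes had a median difference of -6.10, and their summed level was 4001 and 4003 TPM in whole nerve and 129 and 94.9 TPM in Schwann cells. Lyz2, which encodes lysozyme, stood at 1619.8 and 1549 TPM in whole nerve and 22.6 and 12.1 TPM in Schwann cells, a difference of -6.79 (SE 0.69, adjusted p = 1.37e-06). Cd74, the invariant chain of MHC class II, stood at 346 and 406 against 2.71 and 2.90 TPM (-7.37, SE 0.37). Aif1, the gene of the microglial and macrophage protein Iba1, stood at 356 and 322 TPM in whole nerve and at 9.45 and 1.55 TPM in the Schwann cell libraries, where the first held more than the second. The first Schwann cell library held more of 20 of the 23 macrophage genes than the second, Itgam, Gpnmb and Cd74 being the others. All 23 were still lower with either library left out, with a median of -6.74 without the first and -5.51 without the second. Gpnmb, a glycoprotein of lysosomal membranes, was the exception in size, at 54.5 and 60.9 TPM in Schwann cells and 176 and 193 TPM in whole nerve (-1.97, SE 0.11). CD45 and Thy1 were targets of the depletion, so the low level of Thy1 (1.92 and 1.18 against 15.96 and 14.2 TPM) is no finding.

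Fibroblasts build the collagenous matrix of the nerve. Apart from Col1a2, all 19 fibroblast genes were lower in Schwann cells, with a median of -7.31, and 2 of them were at the floor there. With Col1a2 counted the median was -6.77, or -6.08 with genes at the floor set to their bound. Dcn, which encodes the proteoglycan decorin, stood at 4096 and 4236 TPM in whole nerve and 10.6 and 6.03 TPM in Schwann cells, a difference of -9.24 (SE 0.48, adjusted p = 1.20e-09). Pdgfra, the receptor that marks nerve fibroblasts, stood at 61.8 and 62.4 against 0.60 and 0.32 TPM (-7.31, SE 0.36). Col1a1, a chain of type I collagen, was the least depleted member, at 415 and 283 TPM in Schwann cells and 2246 and 2430.2 TPM in whole nerve (-3.03, SE 0.19). Col1a2, the other chain of the same collagen, was listed at 0 in both whole nerve libraries and at 257 and 239.7 TPM in Schwann cells. Its estimate also jumped between replicates of other groups, with 565 and 27.96 TPM in the uncrushed Schwann cell libraries and 72.3 and 459.9 TPM in day 7 whole nerve, so its call as higher is uncertain and no fold is given. Perineurial cells form the barrier sheath around each fascicle. Cldn1, their tight junction claudin, stood at 171 and 199 TPM in whole nerve and 0.89 and 0.54 TPM in Schwann cells (-8.27, SE 0.35), while Itgb4, an integrin chain on that list that Schwann cells also make, was higher (0.90, SE 0.13).

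The 18 endothelial genes had a median of -7.00 and the 14 pericyte and smooth muscle genes one of -4.30. With genes at the floor set to their bound these were -6.48 and -3.76. Cdh5, the cadherin of endothelial junctions, stood at 95.01 and 92.8 TPM in whole nerve and 0.49 and 0.80 TPM in Schwann cells (-7.49, SE 0.45, adjusted p = 5.15e-09). Pecam1 was at the floor in Schwann cells, with 31.8 and 29.6 TPM in whole nerve, and was at least 211-fold lower. The summed level of the 18 endothelial genes was 378 and 368 TPM in whole nerve and 4.82 and 6.28 TPM in Schwann cells. Rgs5, a marker of pericytes, stood at 484 and 494 against 6.52 and 4.78 TPM (-6.72, SE 0.42), and Acta2, smooth muscle actin, at 53.6 and 66.4 against 0.35 and 0.59 TPM (-7.28, SE 0.45). Mcam, an adhesion molecule on the pericyte list, was higher in Schwann cells, at 175 and 169 TPM against 56.7 and 64.2 TPM (1.22, SE 0.11).

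The list with the lowest median was that of adipocytes, the fat cells of the epineurium, whose 10 genes summed to 8223 and 5772 TPM in whole nerve and to 9.85 and 2.93 TPM in Schwann cells. Car3, a carbonic anhydrase of fat, stood at 3111 and 2217 TPM in whole nerve and 1.36 and 0.20 TPM in Schwann cells (-12.77, SE 0.57, adjusted p = 3.05e-10). Adipoq, the hormone adiponectin, stood at 941 and 652 against 0.32 and 0 TPM (-12.38, SE 0.52). Of the 12 named genes with the largest sizes on the whole nerve side, 10 had no more than 3 counts in either Schwann cell library. By their lower bounds, Pck1, an enzyme of glyceride and glucose synthesis, was at least 723-fold lower, Lep, the hormone leptin, at least 468-fold, Cyyr1 at least 378-fold, Pparg, the master regulator of adipocytes, at least 309.9-fold and Plin1, the coat protein of lipid droplets, at least 308-fold. Cd248, a stromal membrane protein, was at least 279.7-fold lower, Cidec, which fuses lipid droplets, at least 271-fold, Sdpr, a caveolar protein, at least 263-fold, Ces1d, a carboxylesterase, at least 216-fold and Retn, the fat hormone resistin, at least 198-fold. These genes were ranked by fitted values, and every bound but that of Pck1 is below the measured 605-fold of Dcn, so their order is not known. The whole nerve pools differed among themselves in fat, blood and muscle. Hba1, a haemoglobin chain, stood at 2379.9 and 1034 TPM in them, and the 12 skeletal muscle genes summed to 27.9 and 85.5 TPM.

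Mast cells, which sit in the endoneurium and along vessels, were read from their proteases. Cpa3 stood at 516 and 419 TPM in whole nerve and 1.76 and 0.85 TPM in Schwann cells (-8.73, SE 0.53), and Cma1 at 195 and 138 against 0.79 and 0.45 TPM (-8.29, SE 0.61). Kit, the stem cell factor receptor of mast cells, was the mildest of the list, with 10.5 and 12.02 TPM in Schwann cells and 15.5 and 16.9 TPM in whole nerve (-0.81, SE 0.11). Of the neuronal list, the neurofilament genes Nefl (314 and 179.5 TPM in Schwann cells, 130.4 and 171 TPM in whole nerve) and Nefm (221 and 144 against 103 and 132 TPM) were not called (adjusted p = 0.442 and 0.36) although each Schwann cell library stood above both whole nerve libraries. Glul, which encodes glutamine synthetase, was lower (-1.46, SE 0.13), and Kcnj10, a glial potassium channel, was higher (0.87, SE 0.14), both on the satellite glial list.

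Genes of the repair state were on the Schwann cell side. Of 27 tested repair Schwann cell genes, 23 were higher, 1 was lower and 3 were not called, where 23.2% of all genes tested were higher and 28.4% lower, with a median of 1.38 against -0.03 for all genes. Without the 3 members that are also immediate-early genes, 20 of 24 were higher, with a median of 1.29. Between the tissues of uncrushed nerve the full list had a median of 1.52. Against that difference, 8 members had shifted towards Schwann cells at day 5 and 7 towards whole nerve. Jun, the transcription factor on which the repair state depends, stood at 473 and 474 TPM in Schwann cells and 62.1 and 68.7 TPM in whole nerve (2.57, SE 0.12, adjusted p = 2.98e-10). In uncrushed nerve it stood at 870 and 896 against 16.1 and 14.9 TPM. Gdnf, a survival factor for motor neurons, had the largest difference of the list, with 82.1 and 103 TPM in Schwann cells and 4.20 and 5.19 TPM in whole nerve, a 16.5-fold difference (4.05, SE 0.22, adjusted p = 1.77e-09). Shh, a morphogen made by injured Schwann cells, was low in both tissues, at 5.94 and 9.36 and 1.22 and 1.78 TPM (2.05, SE 0.33). Runx2, a transcription factor of repair cells, stood at 134 and 145 against 30.2 and 38.8 TPM (1.74, SE 0.13), Tnc, the matrix protein tenascin C, at 157 and 155 against 33.5 and 41.8 TPM (1.80, SE 0.20), and Sox2 at 95.8 and 82.5 against 21.7 and 25.97 TPM (1.62, SE 0.19). Gfra1, the receptor for GDNF, reached 1159.7 and 1193 TPM in Schwann cells and 381 and 506 TPM in whole nerve (1.17, SE 0.12).

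Myelin protein genes remained detectable at day 5, and 14 of 20 were higher in Schwann cells, 2 lower and 4 not called, with a median of 0.81, beside 23.2% higher and 28.4% lower over all genes tested. Pmp22, a protein of compact myelin, stood at 2172 and 2164 TPM in Schwann cells and 1046 and 1169 TPM in whole nerve (0.68, SE 0.14, adjusted p = 0.00101), Mbp at 910.3 and 1001 against 525 and 562 TPM (0.53, SE 0.12) and Mag at 15.1 and 13.1 against 4.26 and 4.64 TPM (1.30, SE 0.19). Egr2, the transcription factor of myelination, which also responds within minutes to stimuli, had the largest difference among the higher members, at 159 and 141 against 15.2 and 18.2 TPM (2.88, SE 0.16). Mpzl1, a widely expressed membrane protein on the list, was lower, at 14.2 and 14.8 against 43.4 and 35.9 TPM (-1.75, SE 0.14), and so was Cntn1, the adhesion molecule contactin 1, at 1.22 and 1.29 TPM in whole nerve and at the floor in Schwann cells, which made it at least 24.2-fold lower. Of 16 genes of non-myelinating and immature Schwann cells, 13 were higher and 3 lower, to be read against the same shares, with a median of 0.89. Gfap, the intermediate filament of non-myelinating cells, stood at 50.1 and 54.5 against 14.9 and 12.2 TPM (1.66, SE 0.14), and Chl1, an adhesion molecule, at 535 and 489 against 129 and 164 TPM (1.52, SE 0.14). Vcam1, an adhesion molecule of endothelium and stroma on that list, was lower (-4.10, SE 0.37).

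Of 40 nerve transcription factors, 19 were higher, 17 lower and 4 not called, where 23.2% of all genes tested were higher and 28.4% lower. Without the 6 that are also immediate-early genes, 13 of 34 were higher and 17 lower. On the Schwann cell side were Tead1, a partner of YAP, at 182 and 167 against 54.5 and 63.05 TPM (1.30, SE 0.10), and Foxd3, a neural crest factor, at 27.1 and 25.5 against 6.33 and 10.8 TPM (1.33, SE 0.20). On the other side were Spi1, the myeloid factor PU.1, at 4.89 and 4.98 TPM in whole nerve and 0.36 and 0 TPM in Schwann cells (-4.97, SE 0.57), Prrx1, a mesenchymal factor, at 60.6 and 45.1 against 1.13 and 0.30 TPM (-6.57, SE 0.35), and Erg, an endothelial factor, at 30.9 and 31.02 against 0.22 and 0 TPM (-8.32, SE 0.68). Zeb2, at 596 and 520.3 TPM in Schwann cells and 411 and 480.2 TPM in whole nerve, was not called (adjusted p = 0.342).

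**Figure D3:**
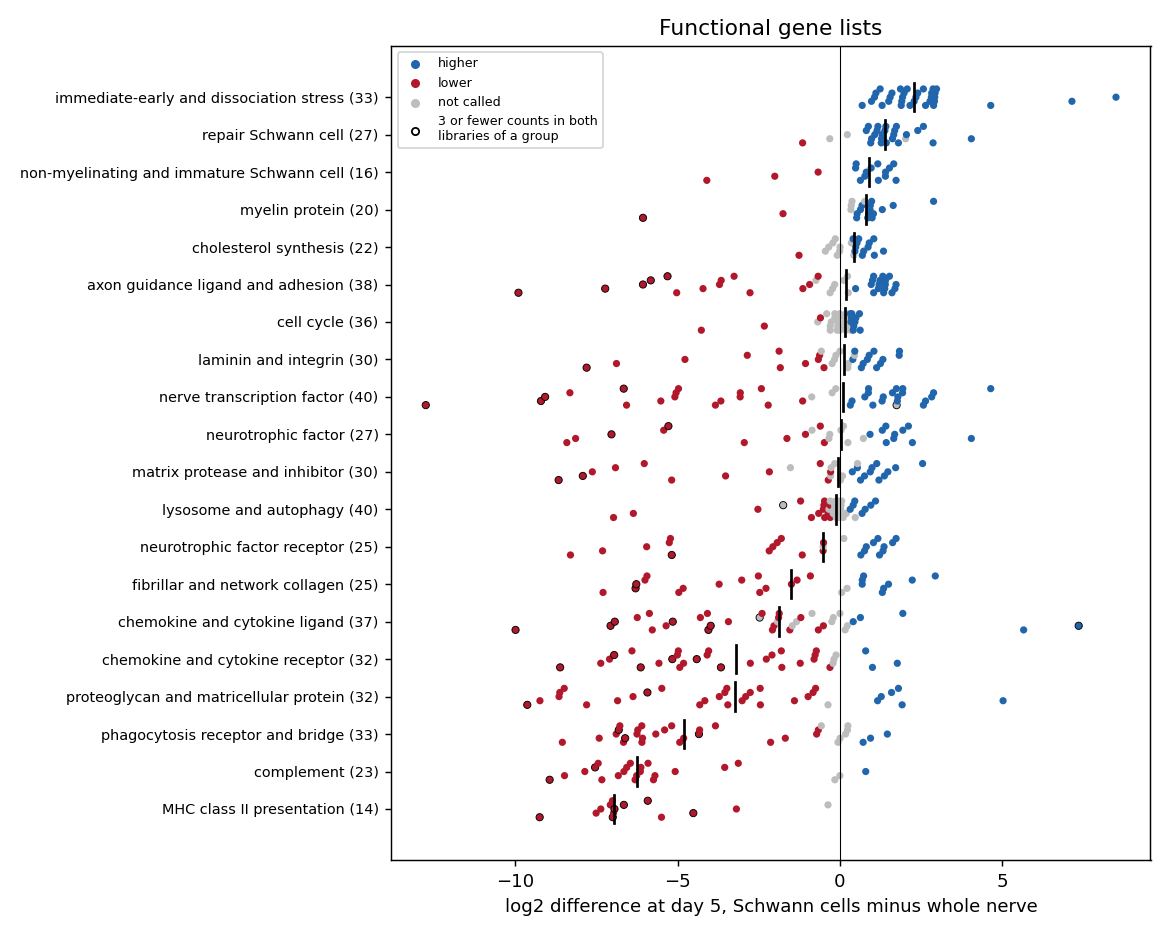
Log2 difference at day 5 for each tested gene of the 20 functional lists, drawn as in the plot of the marker lists and sorted by median (Col1a2 is left out). The immediate-early and stress list lies wholly above 0, the MHC class II and complement lists lie mostly below it, as do 24 called members of the 33 in the phagocytosis list, and the lists of trophic factors, matrix, guidance molecules and transcription factors spread to both sides.

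Of 27 trophic factors tested, 10 were higher in Schwann cells, 10 lower and 7 not called, where 23.2% of all genes tested were higher and 28.4% lower. Beside Gdnf, the higher factors included ligands of the gp130 receptor, with Clcf1 at 19.9 and 15.6 against 3.30 and 2.90 TPM (2.23, SE 0.19), Lif at 11.7 and 12.2 against 2.33 and 4.13 TPM (1.94, SE 0.29) and Cntf at 32.7 and 39.1 against 12.7 and 11.01 TPM (1.30, SE 0.14). Ligands of the EGF receptor were higher too, with Hbegf at 62.9 and 65.5 against 11.7 and 12.7 TPM (2.11, SE 0.16) and Btc at 115 and 88.1 against 20.8 and 31.7 TPM (1.66, SE 0.23). Areg, another EGF receptor ligand outside the list, stood at 9.80 and 12.9 TPM in Schwann cells and had 3 counts or fewer in both whole nerve libraries, so it was at least 27.9-fold higher. Egfr itself, the receptor of these ligands, lay on the other side, at 30.1 and 37.8 TPM in whole nerve and 0.19 and 0.10 TPM in Schwann cells (-8.30, SE 0.31, adjusted p = 5.18e-11).

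The insulin-like growth factors were lower in Schwann cells. Igf1 stood at 395 and 369 TPM in whole nerve and 2.71 and 0.71 TPM in Schwann cells (-8.14, SE 0.48, adjusted p = 3.83e-09), and Igf2 at 262 and 268 against 1.01 and 0.82 TPM (-8.41, SE 0.46). Their receptor Igf1r was higher in Schwann cells, at 20.9 and 18.6 against 6.66 and 8.87 TPM (1.03, SE 0.12). Mdk, the growth factor midkine, stood at 118 and 118 TPM in Schwann cells and 118 and 121 TPM in whole nerve, with a 95% interval of the log2 difference from -0.65 to 0.02, and Ptn, its relative pleiotrophin, at 387 and 353 against 284 and 277 TPM with an interval from -0.20 to 0.42. Of 25 receptors of such factors, 10 were higher and 13 lower, beside 23.2% and 28.4% of all genes tested. Met, the receptor of hepatocyte growth factor, stood at 63.1 and 73.7 TPM in Schwann cells and 23.1 and 25.1 TPM in whole nerve (1.22, SE 0.13), and Ptprz1, a receptor of pleiotrophin and midkine, at 176 and 167 against 41.4 and 50.8 TPM (1.62, SE 0.19). Fgfr1 stood at 25.8 and 23.5 against 83.2 and 86.5 TPM (-2.07, SE 0.10) and Ntrk2, the receptor of BDNF, at 13.01 and 9.72 against 34.4 and 37.1 TPM (-1.93, SE 0.15), both on the whole nerve side.

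**Figure D4:**
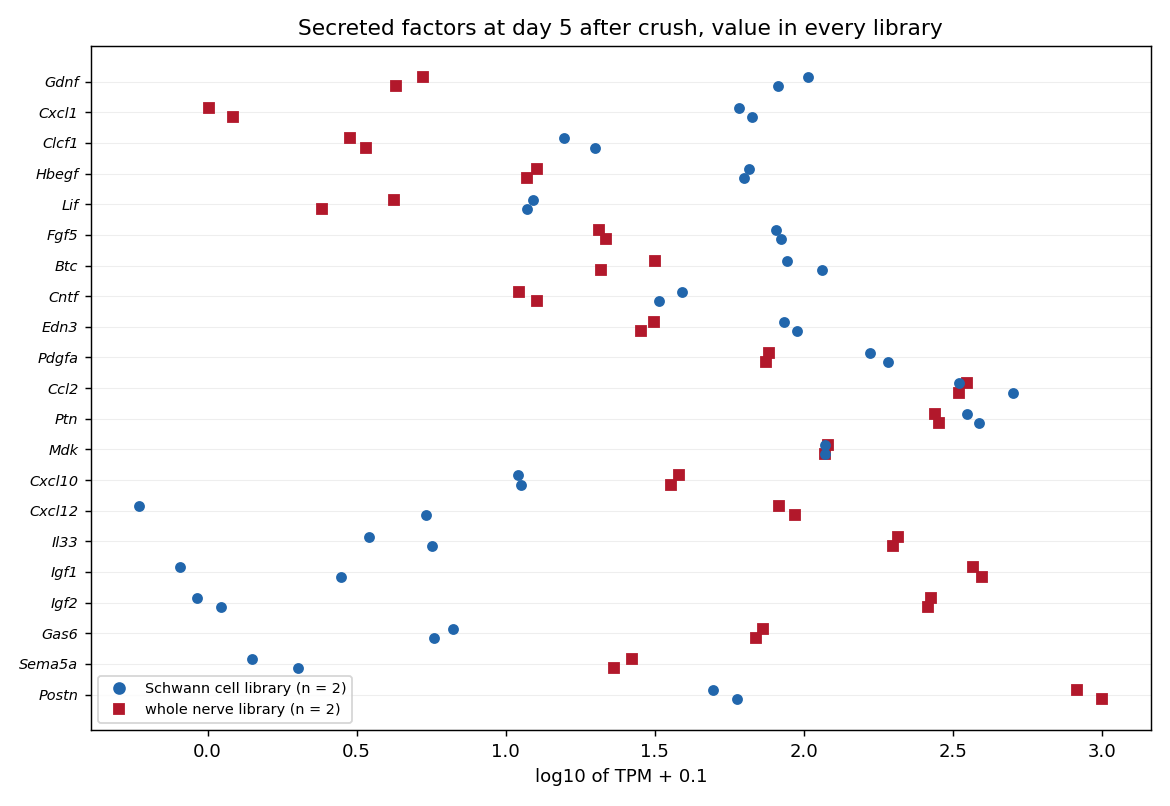
Log10 of TPM + 0.1 of 21 secreted factors in each of the 4 day 5 libraries (circles, Schwann cells; squares, whole nerve). From Gdnf to Pdgfa both circles lie to the right of both squares, Ccl2 and Mdk overlap, Ptn was not called, and from Cxcl10 down both circles lie to the left.

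Of 37 tested chemokine and cytokine ligands, 22 were lower in Schwann cells, 5 higher and 10 not called, where 23.2% of all genes tested were higher and 28.4% lower. The 37 ligands had a median of -1.89, or -1.66 with those at the floor set to their bound. Their summed level was 964 and 790.3 TPM in Schwann cells and 1273 and 1293 TPM in whole nerve. Il33, an alarmin, stood at 200 and 207 TPM in whole nerve and 5.55 and 3.39 TPM in Schwann cells (-5.78, SE 0.24, adjusted p = 1.85e-10), and Cxcl12 at 93.1 and 82.4 against 5.31 and 0.49 TPM (-5.35, SE 0.45). The first Schwann cell library held most of the little Cxcl12 seen there. Cxcl10, an interferon-induced chemokine, stood at 35.7 and 38.2 against 11.2 and 10.9 TPM (-2.03, SE 0.30). Both ligands far on the Schwann cell side attract neutrophils. Cxcl1 stood at 66.9 and 60.4 against 1.12 and 0.91 TPM (5.66, SE 0.30, adjusted p = 1.65e-09), and Cxcl2 at 3.08 and 2.47 TPM in Schwann cells and 0 in both whole nerve libraries, so it was at least 6.54-fold higher (adjusted p = 0.00157). In uncrushed nerve both were higher still in Schwann cells. Cxcl1 stood there at 1292 and 1191 against 0.40 and 0.60 TPM and Cxcl2 at 10.8 and 6.65 against 0.11 and 0.49 TPM. At day 5 Ccl2, the chemokine that recruits monocytes, stood at 503 and 333 TPM in Schwann cells and 331 and 352 TPM in whole nerve, with an interval of the difference from -0.49 to 0.49. In uncrushed nerve it stood at 1168 and 1001 against 19.8 and 25.6 TPM. Of 32 receptors, 26 were lower, 3 higher and 3 not called. Tnfrsf12a, the receptor of TWEAK, was among the higher ones, at 239 and 246 against 54.8 and 61.5 TPM (1.77, SE 0.14), and Il1r1, the receptor of interleukin 1, among the lower, at 22.2 and 20.2 TPM in whole nerve and 0.33 and 0.10 TPM in Schwann cells (-7.10, SE 0.26).

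Complement, antigen presentation and the uptake of debris were read from a list each. Of 23 complement genes, 20 were lower, 1, the integrin chain Itgax (0.79, SE 0.28), was higher and 2 were not called, where 23.2% of all genes tested were higher and 28.4% lower. The median of the list was -6.26, or -6.15 with genes at the floor set to their bound, and -7.06 without the first Schwann cell library. The call of Itgax was lost with DESeq2 and without either Schwann cell library or the second whole nerve library. C1s stood at 454 and 449 TPM in whole nerve and 8.32 and 5.98 TPM in Schwann cells (-6.26, SE 0.18). Cd59, which shields cells from complement, was high in both, at 532 and 450 TPM in Schwann cells and 455 and 442 TPM in whole nerve, and was not called (adjusted p = 0.342). Of 14 genes of MHC class II presentation, 13 were lower (28.4% of all genes tested were) and 1 was not called, with a median of -6.96, or -5.34 with genes at the floor set to their bound. RT1-Da stood at 118 and 150.2 against 1.35 and 0.35 TPM (-7.51, SE 0.48). Lists in this field share members, and Cd74 and Ctss count under several of them.

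Of 33 receptors and bridging proteins of phagocytosis, 24 were lower, 3 higher and 6 not called, beside 28.4% lower and 23.2% higher over all genes tested. The 3 higher ones were Mertk, Axl and Abca1. Mertk, a receptor for phosphatidylserine on dying cells, stood at 64.00 and 77.2 TPM in Schwann cells and 19.4 and 22.6 TPM in whole nerve (1.46, SE 0.16, adjusted p = 3.74e-06). Axl, of the same receptor family, stood at 171 and 163 against 81.4 and 85.6 TPM (0.71, SE 0.10), and Abca1, which exports cholesterol, at 458 and 461 against 172 and 221 TPM (0.94, SE 0.10). Gas6, the ligand that bridges Mertk and Axl to dying cells, lay on the other side, at 69.1 and 73.1 TPM in whole nerve and 5.63 and 6.55 TPM in Schwann cells (-3.83, SE 0.12). The macrophage receptors Mrc1 and Msr1 were lower by 68.8-fold and 102-fold. Lgals3, a lectin linked to myelin uptake, stood at 319 and 379 against 248 and 255 TPM and was not called (adjusted p = 0.167). Of 40 lysosome and autophagy genes, 20 were not called, 7 were higher and 13 lower, near the 23.2% and 28.4% of all genes tested, with a median of -0.12, which turned to 0.02 with upper quartile normalization. Psap, which activates the breakdown of sphingolipids, was higher at 1088 and 822 against 375 and 438 TPM (0.95, SE 0.14), and Npc1, a lysosomal exporter of cholesterol, at 43.6 and 49.7 against 16.1 and 19.8 TPM (1.10, SE 0.12). Ctsl, a protease, was lower at 129 and 132 against 672 and 555 TPM (-2.53, SE 0.12).

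Without Col1a2, 8 of 25 tested collagen chains were higher in Schwann cells, 15 lower and 2 not called, beside 23.2% higher and 28.4% lower over all genes tested. Col27a1, a fibrillar chain, stood at 26.7 and 26.3 TPM in Schwann cells and 4.33 and 5.18 TPM in whole nerve (2.23, SE 0.11), Col9a3 at 153 and 131 against 45.8 and 45.97 TPM (1.35, SE 0.11) and Col12a1 at 98.1 and 85.4 against 27.03 and 34.1 TPM (1.31, SE 0.14). Col3a1, the major fibrillar collagen beside type I, stood at 4108 and 4053 TPM in whole nerve and 89.5 and 71.9 TPM in Schwann cells (-5.94, SE 0.26). Of the components of the basement membrane, the network collagen Col4a1 (24.2 and 22.2 against 112 and 99.02 TPM, -2.47, SE 0.10) and the linker Nid1 (225 and 184 against 580.2 and 653 TPM, -1.87, SE 0.14) were lower in Schwann cells. The proteoglycan perlecan, Hspg2, was higher at 122 and 107 against 26.1 and 26.7 TPM (1.83, SE 0.15), as was Lama2, the laminin chain of Schwann cell basement membrane, at 165 and 173 against 72.00 and 82.7 TPM (0.84, SE 0.12).

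Several receptors for this matrix were on the Schwann cell side. Itga6 stood at 778 and 843 TPM in Schwann cells and 278 and 367 TPM in whole nerve (1.05, SE 0.12), Itga7 at 111 and 114 against 24.6 and 28.3 TPM (1.82, SE 0.10), Itgb8 at 1624 and 1478 against 439 and 579 TPM (1.32, SE 0.16) and dystroglycan, Dag1, at 1124 and 1171 against 377 and 416 TPM (1.25, SE 0.12). Over the list of laminins and integrins, 12 of 30 were higher, 10 lower and 8 not called, where 23.2% of all genes tested were higher and 28.4% lower. Of 32 proteoglycans and matricellular proteins, 6 were higher, 25 lower and 1 not called. The higher ones included Thbs2 at 443 and 439.5 against 117 and 123 TPM (1.59, SE 0.12), Sdc4 at 316 and 432 against 70.5 and 92.1 TPM (1.91, SE 0.16) and Cyr61, a matricellular protein that stimuli switch on quickly, at 641 and 637 against 18.7 and 13.4 TPM (5.02, SE 0.26). Among the lower ones Lum stood at 1399 and 1539 TPM in whole nerve and 8.06 and 1.61 TPM in Schwann cells (-8.49, SE 0.53), and Postn, periostin, at 1005 and 827 against 59.9 and 49.6 TPM (-4.32, SE 0.26). Of 30 matrix proteases and inhibitors, 12 were higher and 11 lower. Plat, tissue plasminogen activator, stood at 1081 and 1103 against 359 and 420.1 TPM (1.20, SE 0.11) and Adamts1 at 215 and 269 against 31.6 and 36.4 TPM (2.55, SE 0.20), while Mmp2, gelatinase A, stood at 168 and 161 TPM in whole nerve and 6.27 and 4.73 TPM in Schwann cells (-5.18, SE 0.18).

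Of 38 guidance and adhesion molecules, 17 were higher, 14 lower and 7 not called, where 23.2% of all genes tested were higher and 28.4% lower. Sema3b stood at 428 and 459 TPM in Schwann cells and 144 and 166 TPM in whole nerve (1.23, SE 0.09), Sema4f at 27.8 and 30.9 against 6.82 and 9.01 TPM (1.60, SE 0.18) and Slit2, a repellent, at 54.1 and 49.8 against 19.02 and 24.2 TPM (1.00, SE 0.12). Its relative Slit3 was lower at 3.44 and 3.74 against 19.9 and 20.2 TPM (-2.77, SE 0.15), Sema5a at 1.91 and 1.31 against 23.1 and 26.5 TPM (-4.22, SE 0.22) and Ntn1, the attractant netrin 1, at 0.32 and 0.18 against 6.89 and 8.03 TPM (-5.03, SE 0.47).

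Of 36 cell cycle genes, 23 were not called, 10 were higher and 3 lower, beside 23.2% higher and 28.4% lower over all genes tested, with a median of 0.15, and with upper quartile normalization 16 were higher. Without the first whole nerve library 2 were higher and 3 lower. Mki67, a marker of cycling cells, stood at 142 and 135 TPM in Schwann cells and 65.9 and 82.4 TPM in whole nerve (0.62, SE 0.10, adjusted p = 1.71e-04). Top2a stood at 142 and 137 against 92.1 and 115 TPM and was not called (adjusted p = 0.305). Cdkn2b, an inhibitor of the cycle, was lower at 9.27 and 7.40 against 123 and 139 TPM (-4.27, SE 0.22), and so was the cyclin Ccnd2 at 6.05 and 7.05 against 26.97 and 26.8 TPM (-2.33, SE 0.21). Of 22 cholesterol synthesis genes, 12 were higher, 1 lower and 9 not called, with a median of 0.44. Hmgcs1, an early enzyme of the pathway, stood at 193 and 227 TPM in Schwann cells and 106 and 101 TPM in whole nerve (0.73, SE 0.11), and Insig1, which restrains the pathway, was lower at 39.6 and 46.5 against 93.9 and 74.5 TPM (-1.26, SE 0.15).

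The list farthest on the Schwann cell side was that of immediate-early genes and stress genes, which cells switch on within minutes to hours of a stimulus, tissue dissociation among them. All 33 tested were higher in Schwann cells, beside 23.2% of all genes tested, with a median of 2.29. The tissues did not overlap for any of the 33, as they did not for 79.8% of all genes tested. Their summed level was 7609 and 8970 TPM in Schwann cells and 1937 and 1897 TPM in whole nerve. Hspa1a, the inducible heat shock protein HSP70, stood at 179 and 232 TPM in Schwann cells and 0.32 and 0.60 TPM in whole nerve (8.50, SE 0.46, adjusted p = 1.89e-09). Fosb stood at 124 and 169.8 against 0.54 and 1.14 TPM (7.15, SE 0.32) and Fos at 535 and 668 against 18.01 and 21.3 TPM (4.64, SE 0.16), both subunits of the AP-1 transcription factor. Dusp1, which switches off MAP kinases, stood at 117 and 134 against 16.9 and 13.1 TPM (2.77, SE 0.24) and Ppp1r15a, a stress regulator of translation, at 98.4 and 135 against 11.3 and 12.9 TPM (2.97, SE 0.15).

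Of the 12 named genes with the largest sizes on the Schwann cell side, Hspa1a, Fosb and Fos are on this list. The other named ones are Cxcl1, Cyr61, Areg, Gdnf and Col1a2, given above, with Rgs16, a brake on G protein signalling, at 198 and 217 TPM in Schwann cells and 12.2 and 18.6 TPM in whole nerve (3.69, SE 0.17), Csrnp1, a nuclear protein, at 22.5 and 24.1 against 1.39 and 2.31 TPM (3.43, SE 0.19), Nfkbiz, an inducible regulator of NF-kB, at 20.7 and 24.3 against 2.03 and 1.55 TPM (3.36, SE 0.32), and Ugt1a5 at 9.65 and 17.1 against 0.87 and 0.66 TPM (3.85, SE 0.47), a gene that shares exons with its UGT1A relatives and whose estimate is therefore uncertain. Jun, Atf3 and Zfp36 count both here and among the repair genes, and Egr2 both here and among the myelin genes. Of the libraries used here, only those of Schwann cells went through dissociation, and its part in these values was not tested. The same list had a median difference of 3.75 between the tissues in uncrushed nerve, 2.08 at day 3 and 2.33 at day 7.

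Promoters of list members are shown because all of the list lay on the same side, and those chosen share a motif. The sequences of 4 are the 250 bases before the start of the gene, from RefSeq on rat assembly GRCr8 while the counts were made on Rnor_6.0, printed 5′ to 3′ on the strand of the gene, with the cyclic AMP response element TGACGTCA, where factors of the CREB and ATF families bind, in capitals. The windows are chr10:17184603-17184852 on the plus strand for Dusp1, chr13:48087691-48087940 on the minus strand for Btg2, chr16:18769772-18770021 on the minus strand for Jund, chr1:105139597-105139846 on the minus strand for Ppp1r15a, and the motif began at -124, -201, -221, -66 from the start in that order.
Dusp1: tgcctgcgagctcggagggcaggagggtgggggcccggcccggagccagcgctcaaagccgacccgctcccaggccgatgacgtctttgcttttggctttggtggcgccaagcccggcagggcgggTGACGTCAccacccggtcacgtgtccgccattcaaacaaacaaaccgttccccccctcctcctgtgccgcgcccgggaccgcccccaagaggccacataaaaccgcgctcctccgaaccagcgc
Btg2: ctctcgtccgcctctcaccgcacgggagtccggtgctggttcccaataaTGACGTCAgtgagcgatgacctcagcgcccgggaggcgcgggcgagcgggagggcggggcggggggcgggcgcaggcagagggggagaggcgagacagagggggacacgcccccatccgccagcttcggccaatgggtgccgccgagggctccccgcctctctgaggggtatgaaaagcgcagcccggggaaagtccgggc
Jund: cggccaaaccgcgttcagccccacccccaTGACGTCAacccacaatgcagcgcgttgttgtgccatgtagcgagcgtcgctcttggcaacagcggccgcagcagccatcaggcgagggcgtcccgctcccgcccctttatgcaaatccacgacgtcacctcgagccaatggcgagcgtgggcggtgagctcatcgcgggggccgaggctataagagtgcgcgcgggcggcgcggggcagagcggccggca
Ppp1r15a: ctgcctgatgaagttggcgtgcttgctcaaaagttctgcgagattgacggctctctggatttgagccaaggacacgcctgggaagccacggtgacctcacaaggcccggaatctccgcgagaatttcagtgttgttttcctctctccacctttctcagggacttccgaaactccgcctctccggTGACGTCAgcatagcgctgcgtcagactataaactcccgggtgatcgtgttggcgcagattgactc

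The motif was found in the window from 250 bases before to 50 after the start of 6 of the 24 immediate-early and stress genes with a promoter in the RefSeq table (25.0%), namely Jund, Ier2, Dusp1, Btg2, Maff and Ppp1r15a. It was in 1.91% of all 27457 promoters, in 2.97% of the 11233 promoters of genes tested, in 3.04% of those of genes called higher and in 2.01% of those of genes called lower. Its first part, TGACG, occurred in 62.5% of the 24 promoters and in 30.3% of those of genes tested. Both strands were searched, and every match of the longer motif also counts for the shorter one. On the other side, the PU.1 motif GAGGAAGT was in 1 of 17 macrophage promoters, that of Ctss, and in 2.61% of promoters of genes tested. The SOX motif ACAAAG was in 2 of 8 Schwann lineage promoters, those of Cnp and Egfl8, but also in 5 of 17 macrophage promoters (29.4%) and 5 of 11 MHC class II promoters (45.5%), and in 13.6% of promoters of genes tested. A pattern that only approximates the CArG box, with some inner bases left free and others fixed, was in 2 of 24 immediate-early promoters. These were those of Egr1 and Egr2, and the pattern was in 1.21% of promoters of genes tested. The CArG box itself was not searched, so these are not counts of it. A match describes letters in a window and not a bound site.

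Some abundant transcripts had a fitted difference near 0. For 2549 genes (15.1%), the 95% interval of the log2 difference lay within 0.5 of 0. The 10 most abundant of these included S100a11 at 12213 and 9924 TPM in Schwann cells and 8021 and 9106 TPM in whole nerve (interval from -0.24 to 0.24), the elongation factor Eef1a1 at 4186 and 5031 against 4353 and 4151 TPM (interval from -0.40 to 0.04), Ywhae, a 14-3-3 protein, at 2692 and 2869 against 1943 and 2178 TPM (interval from -0.04 to 0.32) and Tpm4, a tropomyosin, at 2304 and 2261 against 1664 and 1773 TPM (interval from -0.10 to 0.33). In TPM, both Schwann cell libraries stood above both whole nerve libraries for S100a11, Ywhae and Tpm4, the fitted differences lying below the TPM ratios as given above. Cd63, a tetraspanin of this group, was called higher although its interval stayed within 0.5, from 0.11 to 0.45. That call was lost without the second Schwann cell library (adjusted p = 0.0558) or either whole nerve library (adjusted p = 0.0523 and 0.0504). The 15 most abundant genes were ranked by the mean of log2(TPM + 1) over the 4 libraries, which places a gene low in either tissue such as Apod further down. Symbols that begin with LOC, RGD, AABR, AC, Mt-, Rn (such as Rn18s), Rps or Rpl were left out, as among the 10 above. Of the 15, 10 were encoded by the mitochondrial genome and all 10 were lower in Schwann cells, from -0.65 for COX3 to -1.18 for ATP6. The call of COX3 was lost with DESeq2, with upper quartile normalization and without the second Schwann cell or either whole nerve library. Vim, the intermediate filament vimentin, was higher, at 16821 and 17767 against 6342 and 7195 TPM (1.06, SE 0.10), Fth1, the ferritin heavy chain, lower at 3701 and 4361 against 6656 and 6756 TPM (-1.03, SE 0.12), and Sparc, a collagen-binding protein, lower at 3371 and 3135 against 5247 and 5283 TPM (-0.98, SE 0.10).

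The day 5 difference between the tissues was then set against that of uncrushed nerve, where 10844 genes (64.4%) differed, by an interaction test. For 4633 genes (27.5%) the tissue difference at day 5 was not that of uncrushed nerve, with 2120 shifted towards Schwann cells (12.6%) and 2513 towards whole nerve (14.9%). Of 20 myelin protein genes, 15 shifted towards Schwann cells and 2 towards whole nerve, and the median of the list was -1.24 in uncrushed nerve and 0.81 at day 5. Pmp22 stood at 19491 and 19134 TPM in uncrushed Schwann cells and 26215 and 33977 TPM in uncrushed whole nerve, a difference of -1.45, so that the difference at day 5 was larger by 2.13 (SE 0.20, adjusted p = 3.16e-06). Cell cycle genes went the other way, with 26 of 36 shifted towards whole nerve and a median of 0.98 in uncrushed nerve and 0.15 at day 5. Mki67 stood at 88.8 and 81.1 TPM in uncrushed Schwann cells and 9.77 and 9.06 TPM in uncrushed whole nerve (2.36), and its shift was -1.74 (SE 0.15). Among the collagen chains, 16 of 26 shifted towards whole nerve and 1 towards Schwann cells. Of the 33 immediate-early and stress genes, 22 shifted towards whole nerve and none towards Schwann cells.

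The named genes with the largest shifts towards Schwann cells were led by Edn3, the peptide endothelin 3, which was listed at 0 TPM in both uncrushed Schwann cell libraries and stood at 2.38 and 4.10 TPM in uncrushed whole nerve. At day 5 it stood at 95.1 and 85.9 TPM in Schwann cells and 28.4 and 31.4 TPM in whole nerve. Aldh1a2, which makes retinoic acid, stood at 0.32 and 0 against 4.63 and 3.43 TPM in uncrushed nerve and at 42.01 and 41.8 against 20.1 and 21.1 TPM at day 5. Ltbp1, which stores TGF-beta in the matrix, went from 1.42 and 1.55 against 19.9 and 15.2 TPM to 59.8 and 67.1 against 36.9 and 38.1 TPM. In the opposite direction, Abca8a, a lipid transporter, stood at 1142 and 1059.9 TPM in uncrushed Schwann cells and 94.7 and 122 TPM in uncrushed whole nerve, and at 12.2 and 10.4 against 78.8 and 87.4 TPM at day 5. Col11a1, a fibrillar collagen chain, went from 50.7 and 50.7 against 31.1 and 41.9 TPM to 1.85 and 1.28 against 76.7 and 87.7 TPM, with whole nerve higher than before and Schwann cells near 1 to 2 TPM.

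**Figure D5:**
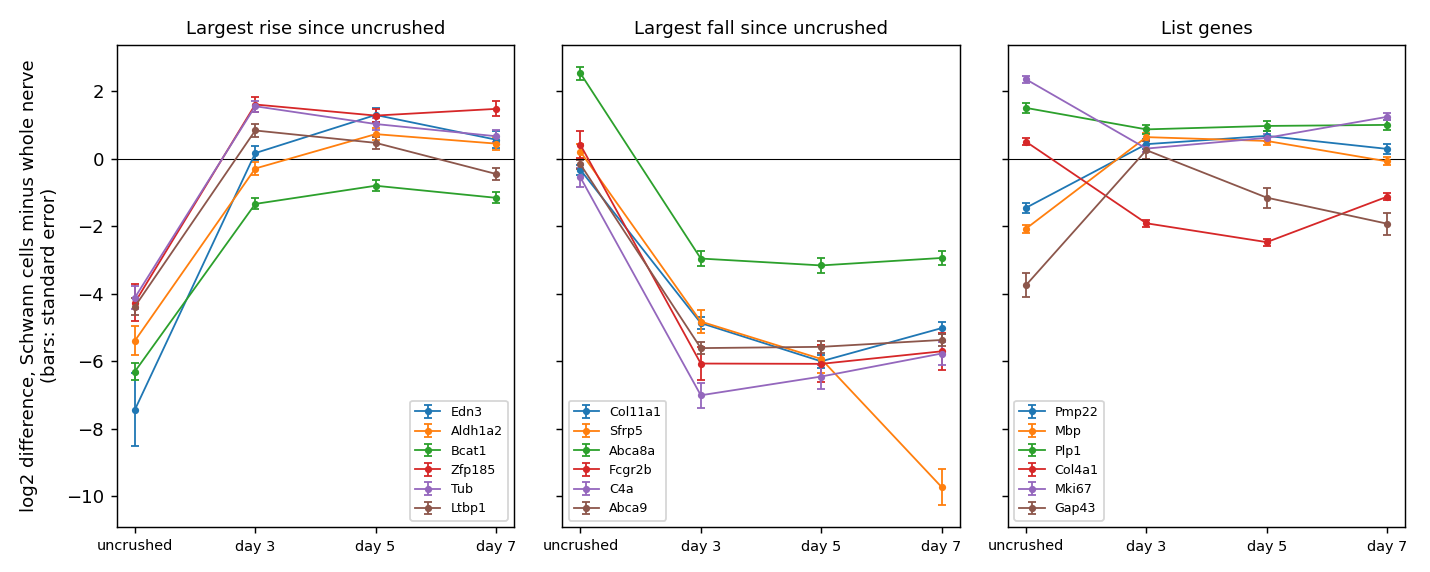
Log2 difference between Schwann cells and whole nerve (mean of 2 libraries each, bars give the standard error) in uncrushed nerve and at day 3, 5 and 7 for the 6 named genes with the largest shift in each direction between uncrushed nerve and day 5, and for 6 list genes. The 12 genes had made most of their shift by day 3, Pmp22 and Mbp cross from below 0 to above it, and Mki67 and Col4a1 are lower at day 5 than in uncrushed nerve.

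Against the neighbouring days the tissue difference at day 5 moved for far fewer genes, 509 against day 3 (3.02%; 164 towards Schwann cells and 345 towards whole nerve) and 53 against day 7 (0.315%; 27 and 26). Leaving out 1 day 5 library gave 126 to 231 genes against day 3 and 15 to 23 against day 7, and leaving out the second day 3 Schwann cell library gave 277 against day 3. Dab2, an endocytic adaptor, stood at 8.56 and 9.18 TPM in day 3 Schwann cells and 38.6 and 34.6 TPM at day 5, while whole nerve held 175 and 171 and 143 and 155 TPM, a shift of 2.26 (SE 0.16, adjusted p = 2.07e-05). Fbln5, an elastic fibre protein, stood at 1.13 and 2.11 and then 16.02 and 17.9 TPM in Schwann cells and at 99.3 and 102 and then 92.6 and 101 TPM in whole nerve (3.35, SE 0.28). The mast cell gene Cpa3 shifted towards whole nerve by -3.89 (SE 0.67), with 5.98 and 23.6 TPM in the day 3 Schwann cell libraries, where the second stood above the first, and the call was lost without the second day 5 Schwann cell library (adjusted p = 0.0509). Between day 5 and day 7, Cryab, a small heat shock protein, stood at 536 and 571 TPM in Schwann cells and 62.7 and 64.8 TPM in whole nerve at day 5, and at 485 and 652 against 196 and 172 TPM at day 7, a shift of 1.59 (SE 0.22, adjusted p = 0.00693). Sema5a, the guidance molecule given above, stood at 10.2 and 7.14 TPM in Schwann cells and 23.9 and 31.4 TPM in whole nerve at day 7, a shift of -2.17 (SE 0.28). Col4a1 stood at 38.9 and 40.2 against 64.5 and 67.8 TPM at day 7, and its shift was -1.35 (SE 0.14, adjusted p = 0.00119).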

How the data were processed

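The 4 day 5 libraries were fitted together with the 12 others of the series. The authors aligned reads with STAR to Rnor_6.0 and estimated with RSEM an expected count and a TPM for each of 31038 genes, and the deposited expected counts are neither normalized nor filtered. The deposited TPM is scaled by the authors to gene length and library. cDNA was amplified with SPIA and carries no molecular identifiers, so bounds cover counting error only. The authors' count matrix, which repeats these estimates, and their table of gene modules were not used, and 0 columns of per-sample values were left unused.

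Expected counts were rounded, normalized by TMM, filtered with filterByExpr (16829 genes left) and fitted with edgeR 4.0.16 in R 4.3.3, with a mean for each of the 8 groups and the quasi-likelihood test, adjusted by Benjamini-Hochberg at 0.05. The contrasts were Schwann cells minus whole nerve at day 5 and the difference of that contrast from the one in uncrushed, day 3 and day 7 nerve. An SE is the log2 difference divided by the square root of F. With 2 against 2 libraries an exact two-sided permutation test cannot go below p = 0.333, so calls rest on the spread shared by all groups. On counts simulated for the day 5 comparison, 200 genes were set to differ between the tissues and all others to be equal. In the data 8694 genes were called, so the simulated rates may not carry over. There edgeR kept 16560 genes and recovered 58 of 105 changed by a log2 of 1 and 74 of 89 changed by 2. It made 6 false calls among 138. DESeq2, run on 16829 genes, recovered 139 of 200 with 14 false calls among 153.

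The named genes are the 12 in each direction with the largest size less 2 SE among called genes with at least 10 TPM and no overlap, the 15 most abundant by mean log2(TPM + 1), the 6 with the largest shift in each direction against each other time point, the 10 most abundant with an interval within 0.5 of 0, and any member of the 35 gene lists. Symbols that begin with LOC, RGD, AABR, AC, Mt-, Rn, Rps or Rpl were left out of all these rankings. Members and lists were chosen with earlier results of these data known. Replicate numbers are shared between tissues in the labels, but deviations from group means of same-numbered samples did not correlate (r = -0.011 at day 5, between -0.020 and 0.002 at the other times), so no pairing was used. Alternatives were DESeq2 1.42.0, other normalizations and filters, a fit without Rn18s and the mitochondrial genes and a 2-fold minimum. Further ones were a fit of the groups compared alone, a replicate block and leaving out each day 5 library. The second day 3 Schwann cell library was also left out for the shifts against day 3, and no other library was left out. Promoters were matched by symbol. Values were assembled with Python 3.11.15, pandas 2.3.3, numpy 2.4.6 and scipy 1.17.1 and drawn with matplotlib 3.10.9.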

Additional observations from a re-analysis of the deposited data

Results flagged for a closer look

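For 36 genes the gap between the tissues at day 5 differed from that of another time point, by an interaction test of that difference in edgeR, and they are the 6 named genes with the largest shift in each direction for each of the 3 time points. All values are shifts on the log2 scale, positive towards Schwann cells.

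Against uncrushed nerve the shifts towards Schwann cells were 8.74 for Edn3, 6.13 for Aldh1a2, 5.51 for Bcat1, 5.54 for Zfp185, 5.15 for Tub and 4.85 for Ltbp1. Those towards whole nerve were -5.68 for Col11a1, -6.15 for Sfrp5, -5.70 for Abca8a, -6.50 for Fcgr2b, -5.90 for C4a and -5.41 for Abca9. Against day 3 the shifts towards Schwann cells were 3.35 for Fbln5, 3.77 for Slco2a1, 2.26 for Dab2, 2.97 for Icoslg, 2.13 for Ntm and 2.44 for Angpt1. Those towards whole nerve were -5.92 for Cyyr1, -3.89 for Cpa3, -4.32 for Cldn5, -3.70 for Lrat, -2.52 for Atp8b1 and -3.15 for Mcpt1l1. Against day 7 the shifts towards Schwann cells were 2.66 for H3f3c, 2.16 for Igfbp6, 1.96 for RT1-S3, 1.64 for Fyb, 1.59 for Cryab and 1.46 for Sbspon. Those towards whole nerve were -2.88 for Gypc, -2.17 for Sema5a, -1.87 for Nr1d1, -1.63 for Pcsk5, -1.79 for Postn and -1.35 for Col4a1. Edn3 in uncrushed Schwann cells and Cyyr1, Cldn5, Lrat and Slco2a1 in a Schwann cell group had 3 counts or fewer, so their fitted shifts depend on the prior count and are not measured folds. The mast cell genes Cpa3 and Mcpt1l1 stood at 5.98 and 23.6 and at 11.7 and 45.8 TPM in the day 3 Schwann cell libraries, and the part of the second library in their shifts was not tested beyond leaving it out. All 12 shifts against uncrushed nerve kept their call with any 1 day 5 library left out. Against day 3 this held for Fbln5, Dab2, Ntm, Angpt1 and Atp8b1, and against day 7 for Fyb, Cryab, Gypc, Sema5a, Nr1d1 and Col4a1, while each of the others lost its call without at least 1 library. Calls were also lost for Cyyr1, Cldn5, Slco2a1 and H3f3c with the replicate block and for Cldn5 and Slco2a1 with DESeq2. Without the second day 3 Schwann cell library, Cyyr1, Cldn5, Lrat and Slco2a1 lost theirs.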

How the results depend on the processing

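The count of 8694 genes at day 5 lay between 6318 and 9035 under the other filters, normalizations and tests and between 6787 and 7358 with 1 library left out, and a minimum difference of 2-fold gave 3265 genes, 824 higher and 2441 lower. The count against uncrushed nerve was 997 with that minimum. Counts against the neighbouring days were less steady. Against day 3, 509 became 774 with DESeq2, 7 with the 2-fold minimum, 974 in a fit of the groups compared alone, 1341 without a filter, 126 to 231 with 1 day 5 library left out and 277 without the second day 3 Schwann cell library, an alternative chosen after seeing the data. Against day 7, 53 became 175 with DESeq2, 1 with the 2-fold minimum, 629 without a filter and 15 to 23 with 1 library left out. The causes were not tested. Replicate numbers did not pair the samples, and with a replicate block the counts were 8104 at day 5, 4019 against uncrushed nerve, 272 against day 3 and 31 against day 7.

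Of 165 genes of the day 5 comparison given here with values, 122 kept their direction and call under every alternative. Genes without a call crossed 0. Ccl2 was -0.0363 with at least 10 counts in every library, -0.0114 in a fit of day 5 alone and -0.0345 with the replicate block, and between -0.356 and 0.285 with 1 library left out. S100a11 was -0.0350, -0.00970 and -0.00163 in that order, and between -0.141 and 0.135 with 1 library left out. Nefl lay between -0.0460 and 0.792 and Nefm between -0.00135 and 0.646 with 1 library left out, and Zeb2 was 0.00903 with upper quartile normalization. Depth limits the genes at or under 3 counts in both libraries of a tissue, 1284 in Schwann cells alone and 461 in whole nerve alone, to bounds.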

Other observations

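Of the 30 genes more than 8-fold higher in Schwann cells with at least 10 TPM, 3 are on the immediate-early and stress list and 15 have only a LOC identifier as symbol. Outside the rule for named genes, and picked out after their values were seen, Gadd45b, a stress-induced growth arrest protein, stood at 105 and 152 TPM in Schwann cells and 11.1 and 14.5 TPM in whole nerve (3.05, SE 0.21). Pcdh9, a protocadherin, stood at 27.5 and 25.6 against 2.10 and 2.42 TPM (3.10, SE 0.21). Wbp11, a splicing factor, was listed at 25.5 and 0 TPM in the Schwann cell libraries and 0 and 0.02 TPM in whole nerve, an estimate present in 1 library.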
